A study of Homo sapiens with 8 samples.

Results

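A run of neighbouring genes on the long arm of chromosome 7, at 7q21 between TMEM60 and SDHAF3, was described in sublines of a pair of human esophageal squamous carcinoma lines. The list holds 44 genes. It was put together with the D and U values of these arrays in view, so the differences between D and U sublines are given for its members as a description, without a test. Of these, 42 had a probe set of their own, a probe set being a group of short array probes for 1 transcript, out of 19775 genes with one on the whole array. The probe set with the highest mean over the 8 arrays stood for each gene. CYP51A1 was seen only on probe sets shared with another gene, and KRIT1 was not analysed here. In all 37 members had a mean level above the filter value, a log2 level of 4.46, and 5 lay below it, namely ABCB4, ABCB1, RUNDC3B, GTPBP10 and PDK4.

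KYSE30 and KYSE180 are established cell lines from esophageal squamous cell carcinoma. Each was passed 4 times over a transwell, a chamber with a porous membrane that motile cells can cross. Sublines of cells that passed the membrane are called 30D and 180D and are the more motile ones per the labels, and those of cells that stayed behind are 30U and 180U. Each of the 4 groups held 2 arrays of total RNA, taken 2 passages after harvest, with no drug and no genetic change named in the labels. Each D subline had its U partner from the same of 4 independent parental populations, which gives 2 parental pairs per line. By the labels' clone names the first KYSE180 pair is 180U-1 with 180D-2 and the second is 180U-2 with 180D-1, whereas in KYSE30 the array numbers match. Each line comes from 1 tumour, so the values describe these sublines.

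Neighbouring genes on a chromosome do not as a rule share a function. They can share a copy number, a stretch of chromatin or an imprinted domain, and a pair that starts back to back can share a promoter. The 7q21 band carries genes of very different kinds. CDK6 is a kinase that works with D-type cyclins to let cells leave the first gap phase of the cycle. FZD1 is a receptor for secreted Wnt proteins, and STEAP1 and STEAP2 are membrane proteins, of which STEAP2 reduces metals. SAMD9 and SAMD9L are induced by interferon and restrain viruses, and SGCE and PEG10 are read from the paternal chromosome only. In squamous cancers of the esophagus CDK6 is known as a gene that can be amplified.

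Levels on the arrays ran from 1.44 to 14.01, and the medians of the 8 arrays lay between 5.02 and 5.04. The correlation across tested genes was 0.997 to 0.998 for arrays of 1 group, 0.992 to 0.995 for arrays of different groups of 1 line and 0.860 to 0.869 between the lines. Array 180D-1 stood apart on the control probe sets: its beta-actin signal was 1.92 higher at the 3′ than at the 5′ end, where the remaining arrays ranged from 1.06 to 1.42. Its 18S control read 11.79, where the remaining arrays ranged from 12.88 to 13.01. KYSE180 differences of the members that are described array by array are therefore also given without it. The epithelial markers EPCAM, CDH1 and SFN lay between 11.65 and 13.00 on all arrays, and the basal keratins KRT5 and KRT14 ranged from 4.48 to 12.36 and from 3.45 to 13.64. Of the 14 marker genes of fibroblasts, immune cells, endothelium and melanocytes 7 had a mean above the filter value, and the highest reading of any was 5.85. In bulk RNA, fewer cells of a kind and less RNA per cell cannot be told apart.

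Promoter windows, the 250 bases before a transcription start, were taken from RefSeq on build GRCh38.p14, where 40 of the 44 members had at least 1 window. No window was used for ABCB4, PEG10, RBM48 and SGCE. The windows of the members held a median of 21 CG dinucleotides, against a median of 11 over all 35116 windows. Shown first are those of FZD1, which had the widest difference between D and U in KYSE30, and of the neighbours STEAP1 and STEAP2, which had the widest in KYSE180, each read 5′ to 3′ on the + strand with CG dinucleotides in capitals. They lie at chr7:91264183-91264432 (FZD1), chr7:90154219-90154468 (STEAP1) and chr7:90211490-90211739 (STEAP2, the first of its 2 windows).
FZD1: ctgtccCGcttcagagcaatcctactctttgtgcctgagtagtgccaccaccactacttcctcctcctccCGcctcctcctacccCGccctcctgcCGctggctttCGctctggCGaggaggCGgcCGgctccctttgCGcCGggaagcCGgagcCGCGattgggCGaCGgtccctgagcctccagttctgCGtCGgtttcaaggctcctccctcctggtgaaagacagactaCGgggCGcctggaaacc
STEAP1: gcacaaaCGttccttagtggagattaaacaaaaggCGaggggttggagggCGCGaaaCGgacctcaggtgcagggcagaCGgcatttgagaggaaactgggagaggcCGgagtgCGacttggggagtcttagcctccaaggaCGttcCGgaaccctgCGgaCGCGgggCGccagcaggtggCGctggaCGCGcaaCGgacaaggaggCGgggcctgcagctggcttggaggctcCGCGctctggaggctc
STEAP2: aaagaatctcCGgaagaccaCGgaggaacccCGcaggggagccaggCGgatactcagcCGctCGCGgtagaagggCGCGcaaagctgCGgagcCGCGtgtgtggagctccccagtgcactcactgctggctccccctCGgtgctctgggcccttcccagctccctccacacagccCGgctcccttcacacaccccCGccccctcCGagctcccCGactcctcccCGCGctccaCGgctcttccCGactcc
The 3 windows held 19, 21 and 21 CG dinucleotides, so all are near or at the median of the members' windows.

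The windows of SAMD9 (chr7:93117980-93118229) and SAMD9L (chr7:93148386-93148635), both on the - strand, are shown for an interferon-response motif, since both genes are known to answer interferon. The motif searched was a pair of GAAA with any 2 bases between them, on both strands, and its match is in capitals. It was found in 3.02% of all windows.
SAMD9: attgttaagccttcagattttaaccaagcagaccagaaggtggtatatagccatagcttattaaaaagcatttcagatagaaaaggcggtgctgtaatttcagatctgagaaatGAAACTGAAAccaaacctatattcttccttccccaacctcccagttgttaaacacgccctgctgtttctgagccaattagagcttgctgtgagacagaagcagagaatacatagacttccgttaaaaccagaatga
SAMD9L: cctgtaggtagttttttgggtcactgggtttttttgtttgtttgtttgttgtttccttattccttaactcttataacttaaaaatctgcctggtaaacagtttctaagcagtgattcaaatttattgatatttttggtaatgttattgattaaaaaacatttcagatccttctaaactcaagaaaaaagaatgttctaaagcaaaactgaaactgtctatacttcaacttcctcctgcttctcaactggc
SAMD9 held the motif and SAMD9L did not hold these letters in its window. The only other members with it were GNAI1 and GNG11, so 3 of the 53 member windows had a match. A match describes the letters and not a bound site.

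Among adjacent members that both had a window, 3 pairs start close together and facing away from each other. TMEM60 and PHTF2 start 339 bases apart, SLC25A40 and DBF4 133 bases, and KRIT1 and ANKIB1 60 bases. The stretch between the starts of SLC25A40 and DBF4 (chr7:87876361-87876492, + strand, CG dinucleotides in capitals) is shown because the pair's differences had 1 sign in KYSE30 and opposite signs in KYSE180, as described further on. On their brightest probe sets TMEM60 and PHTF2 had such signs too, at -0.18 each in KYSE30 and at 0.14 and -0.07 in KYSE180.
SLC25A40-DBF4: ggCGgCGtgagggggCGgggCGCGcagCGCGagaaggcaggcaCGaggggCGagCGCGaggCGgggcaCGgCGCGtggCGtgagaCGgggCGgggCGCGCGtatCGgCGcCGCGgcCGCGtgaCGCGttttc
It held 29 CG dinucleotides.

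In KYSE30 most of the 37 members were lower in the D sublines, by a small amount and alike in both parental pairs. Levels are log2 values and differences are D minus U on that scale. The median difference of the members was -0.18, with -0.19 in the first pair and -0.18 in the second, against 0.01 over all 14180 tested genes. The quartiles of the members were -0.33 and -0.03, and the range ran from -1.16 for FZD1 to 0.63 for SAMD9L. In all 25 members were lower in both pairs, 8 were higher in both and 4 were split. Of all tested genes 35.5% were lower in both pairs and 38.8% higher. The D arrays lay entirely below the U arrays for 25 members (30.9% of all tested genes did so) and entirely above for 7 (33.8%), and 5 members overlapped. These counts belong to the contrast that the list was chosen on and are given as a description. The median gap between the arrays of 1 group was 0.05 for these members.

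In KYSE180 the members were divided. Their median difference was 0.10, with 0.03 in the first pair and 0.07 in the second, against 0.02 over all tested genes, and without 180D-1 it was 0.02. The range ran from -0.82 for STEAP2 to 0.57 for FZD1. In both pairs 14 members were lower (24.9% of all tested genes) and 17 were higher (35.1%), and 6 were split. The D arrays lay entirely below the U arrays for 14 members (18.0%) and entirely above for 15 (26.6%), and 8 overlapped. These counts take in PEG10, TFPI2 and PPP1R9A, whose means were under the filter value in both 180U and 180D, and GNG11, which was so in 180U. The median gap between arrays of 1 group was 0.08. In 16 of the 37 members the difference was negative, in 15 without 180D-1, and in 28 of 37 in KYSE30.

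**Figure D1:**
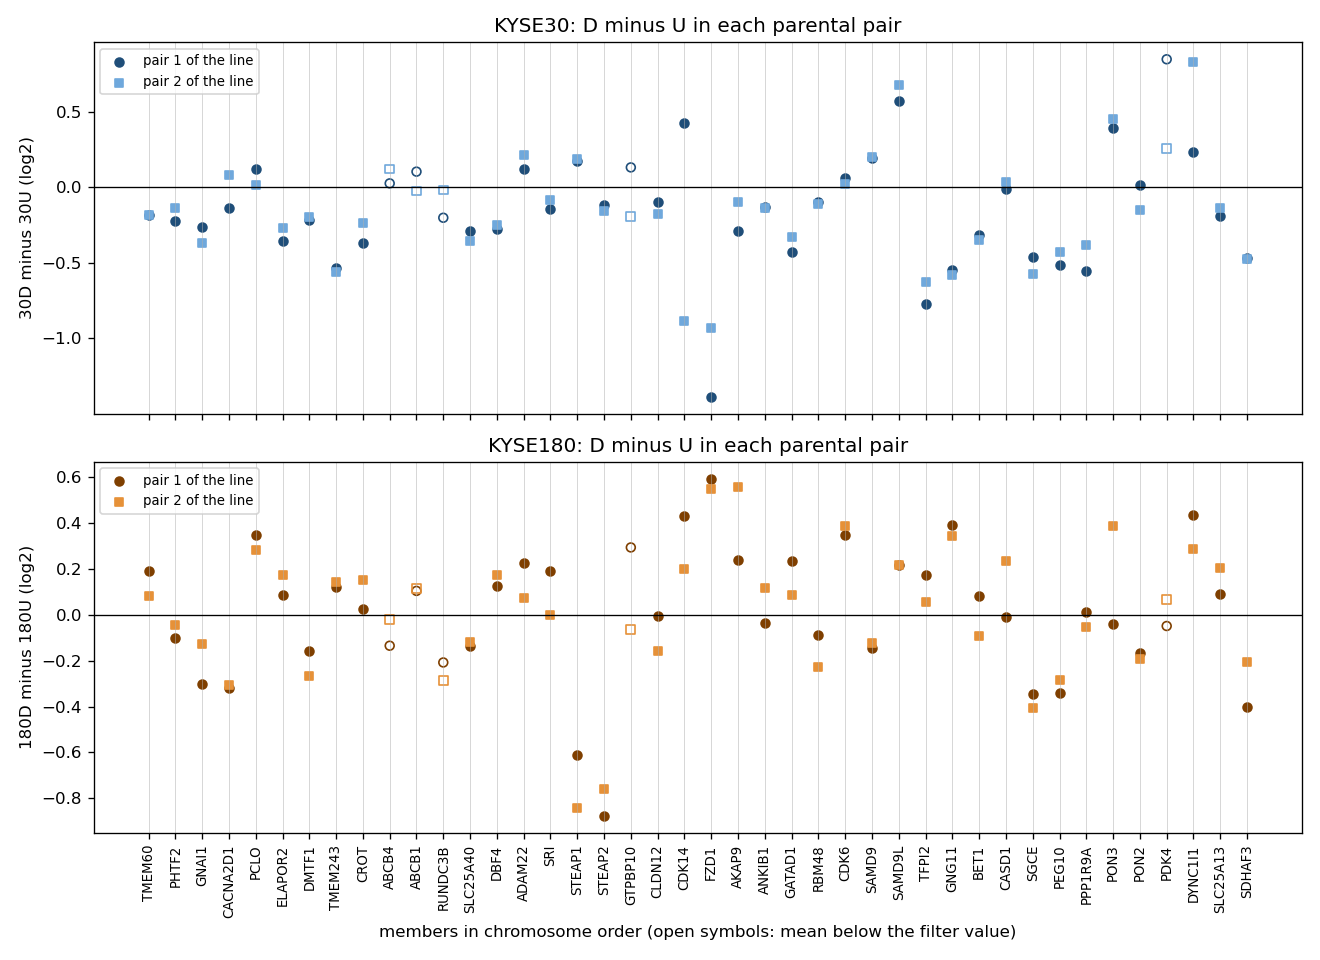
Difference between D and U (vertical axis, log2) in each parental pair for the 42 readable members in chromosome order, KYSE30 above and KYSE180 below, with open symbols for members whose mean is below the filter value. In KYSE30 most symbols of both pairs lie just under 0 with FZD1 lowest, and in KYSE180 STEAP1 and STEAP2 lie lowest and FZD1 is among the highest.

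The lines did not share 1 order of members. Across the 37 members the correlation of the differences between the pairs was 0.73 within KYSE30 and 0.88 within KYSE180, pairs that share no array, while it was -0.05 between the lines. These are descriptions across genes, which are not replicates. In both pairs of both lines 10 members were lower (PHTF2, GNAI1, DMTF1, SLC25A40, STEAP2, CLDN12, RBM48, SGCE, PEG10 and SDHAF3) and 5 were higher (PCLO, ADAM22, CDK6, SAMD9L and DYNC1I1). A further 11 were lower in KYSE30 and higher in KYSE180, namely TMEM60, ELAPOR2, TMEM243, CROT, DBF4, FZD1, AKAP9, GATAD1, TFPI2, GNG11 and SLC25A13, and STEAP1 and SAMD9 went the other way. PEG10 and TFPI2 stand in these counts although both were under the filter value in KYSE180, where no difference can be read. The counts rest on the brightest probe set of each gene. The next probe sets of PHTF2 gave 0.12, 0.08 and 0.03 in KYSE180, and those of ADAM22 gave -0.21 and -0.13 in KYSE30. Further members with probe sets of both signs are named below. The share of all tested genes with such joint patterns is not given here, so these counts are a description only. Taking the 37 members past the filter in order, the longest stretch lower in both KYSE30 pairs held 6 genes, from ELAPOR2 to DBF4, with ABCB4, ABCB1 and RUNDC3B, which are below the filter value, in between. The longest stretch higher in both held 3, CDK6, SAMD9 and SAMD9L. In KYSE180 no stretch of these members in 1 direction was longer than 3.

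Among the Wnt pathway members FZD1, a receptor for Wnt ligands, was the member with the widest difference in KYSE30 and went the opposite way in KYSE180. Its level was 7.22 and 6.97 on the 30U arrays and 5.84 and 6.04 on the 30D arrays. Both 30D arrays lay below both 30U arrays. The difference was -1.39 in the first pair and -0.93 in the second, a mean of -1.16 or 2.23-fold lower. In KYSE180 it stood at 10.03 and 10.05 on the U arrays and at 10.60 and 10.63 on the D arrays, a difference of 0.59 and 0.55 in the pairs and 1.48-fold higher in the mean. Without 180D-1 the KYSE180 difference was 0.58. Its other probe sets gave 0.52 and 0.68 in KYSE180, and both had means under the filter value in 30U and 30D, so the KYSE30 difference rests on 1 probe set. The difference between the lines was not tested for any member.

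CDK14, a cyclin Y-dependent kinase that acts on a Wnt co-receptor, was dim in KYSE30, at 3.47 and 4.48 on the U arrays and 3.90 and 3.59 on the D arrays. Its KYSE30 difference of -0.23 changed sign between the pairs, and it was 0.27 without 30U-2. In KYSE180 it was well above the filter value, at 8.30 and 8.47 on the U arrays and 8.67 and 8.73 on the D arrays. The D arrays lay above the U arrays, by 0.31 in the mean and 0.34 without 180D-1. The next brightest probe set of CDK14 gave a KYSE180 difference of -0.001.

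Of the members that act in the cell cycle, CDK6 differed little in KYSE30 and was higher in 180D. It read 10.40 and 10.45 on the 30U arrays and 10.47 and 10.47 on the 30D arrays, a difference of 0.04. On the 180U arrays it read 10.17 and 10.23 and on the 180D arrays 10.62 and 10.52. There the D arrays lay above the U arrays, by 0.37 in the mean and 0.32 without 180D-1. Its 3 brightest probe sets gave 0.37, 0.40 and 0.29 in KYSE180, while a dimmer one gave -0.12. DBF4, the subunit that activates the kinase CDC7 at replication origins, was 0.26 lower in 30D. In KYSE180 it read 10.27 and 10.10 in 180U and 10.27 and 10.40 in 180D, so the lower D array matched the higher U array to 2 decimals. The difference of 0.15 came to 0.06 without 180U-2, to 0.24 without 180U-1 and to 0.21 without 180D-1. DMTF1, a transcription factor that binds D-type cyclins and raises the ARF tumour suppressor, was 0.21 lower in both 30D and 180D, and 0.14 lower in 180D without 180U-2.

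Partners of CDK6, DBF4, CDK14 and KRIT1 that lie elsewhere were also tested. The choice of members did not turn on them. The partner list was itself made with earlier results of these data known, so its p-values are not independent of that choice. Of 16 partners 14 were tested with limma over all genes, in a fit that does not use the parental pairs. In 30D 1 of them changed past an adjusted p of 0.05, where 16.5% of all tested genes did, and none was lower. CCND1, the cyclin D1 gene, rose from 10.30 in 30U to 10.70 in 30D, a difference of 0.40 ± 0.05 (SE, limma adjusted p = 0.00332). In 180D 0 of the 14 passed by limma, where 3.75% of all tested genes did. An unadjusted p under 0.05 was seen for 2 of the 14 in 180D, against 19.2% of all tested genes, and for 7 of the 14 in 30D, against 30.9%. CDK4, the sister kinase of CDK6, differed by -0.17 in 30D (limma adjusted p = 0.0745) and CDC7 by -0.18 (limma adjusted p = 0.0683). CCND3, another D-type cyclin, differed by 0.24 (limma adjusted p = 0.067). The median over the 14 partners was -0.04 in KYSE30 and -0.07 in KYSE180.

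Both G protein members were lower in 30D, while in KYSE180 their differences had opposite signs. GNG11, a gamma subunit of heterotrimeric G proteins, read 9.27 and 9.38 on the 30U arrays and 8.73 and 8.80 on the 30D arrays, a difference of -0.56. On the 180U arrays it read 4.36 and 4.17, under the filter value, and on the 180D arrays 4.52 and 4.75. The KYSE180 D arrays lay above the U arrays, and measured from the filter value the difference was at least 1.13-fold. The measured difference was 0.37 and came to 0.48 without 180D-1. GNAI1, an inhibitory alpha subunit, was 0.31 lower in 30D and 0.21 lower in 180D, with D below U on all arrays of each line.

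STEAP1 and STEAP2 are neighbours of 1 family of membrane proteins, of which STEAP2 reduces iron and copper. They had the widest differences of the members in KYSE180. STEAP2 read 6.52 and 6.71 on the 180U arrays and 5.95 and 5.65 on the 180D arrays, a difference of -0.82 or 1.76-fold lower. STEAP1 read 9.31 and 9.26 on the 180U arrays and 8.42 and 8.70 on the 180D arrays, a difference of -0.73 or 1.65-fold lower. For both genes the D arrays lay entirely below the U arrays in both pairs, and without 180D-1 the differences were -0.97 for STEAP2 and -0.59 for STEAP1. In KYSE30 the neighbours parted. STEAP2 read 6.19 and 6.10 in 30U and 6.07 and 5.94 in 30D, a difference of -0.14, and STEAP1 read 8.78 and 8.85 in 30U and 8.96 and 9.04 in 30D, a difference of 0.18. STEAP2 in KYSE30 came to -0.07 without 30D-2.

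SAMD9 and SAMD9L, neighbours that arose by duplication, were both higher in 30D. SAMD9L read 7.05 and 6.96 in 30U and 7.62 and 7.64 in 30D, a difference of 0.63 or 1.54-fold. Its 3 probe sets gave 0.63, 0.70 and 0.59 in KYSE30, so they differed little there. SAMD9 read 9.54 and 9.54 in 30U and 9.74 and 9.75 in 30D, a difference of 0.20 with the D arrays above the U arrays, while on its second probe set the arrays overlapped and the pairs were split. In KYSE180 SAMD9L read 6.41 and 6.54 in 180U and 6.76 and 6.63 in 180D, a difference of 0.22, or 0.15 without 180D-1. Its second probe set gave -0.18, with overlapping arrays. SAMD9 was lower there, at 9.24 and 9.29 in 180U and 9.17 and 9.10 in 180D, a difference of -0.13, or -0.17 without 180D-1. On the brightest probe set of each gene the arrays of D and U did not overlap in either line.

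TFPI2 codes for a secreted inhibitor of serine proteases that sits in the matrix. It read 8.27 and 8.24 in 30U and 7.49 and 7.61 in 30D, a difference of -0.70 or 1.62-fold lower. Both 30D arrays lay below both 30U arrays. In KYSE180 all 4 arrays were under the filter value, at 2.61 and 2.84 in 180U and 2.89 and 2.78 in 180D, so no difference can be read there. SGCE, the epsilon-sarcoglycan gene of the imprinted pair, read 9.96 and 10.03 in 30U and 9.50 and 9.46 in 30D, a difference of -0.52. It was lower in 180D too, at 8.12 and 8.07 against 8.42 and 8.53 in 180U, a difference of -0.38 and of -0.40 without 180D-1. PEG10, its retrotransposon-derived partner, had a difference of -0.47 in KYSE30, with -0.51 and -0.43 in the pairs. In KYSE180 PEG10 was under the filter value, at 3.87 and 3.61 in 180U and 3.33 and 3.53 in 180D, and no difference can be read. PPP1R9A, the neurabin gene next to it, was 0.47 lower in 30D and under the filter value in KYSE180. Its next probe sets, which read higher than the one used on the KYSE30 arrays, differed by -0.30 and -0.16 there.

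**Figure D2:**
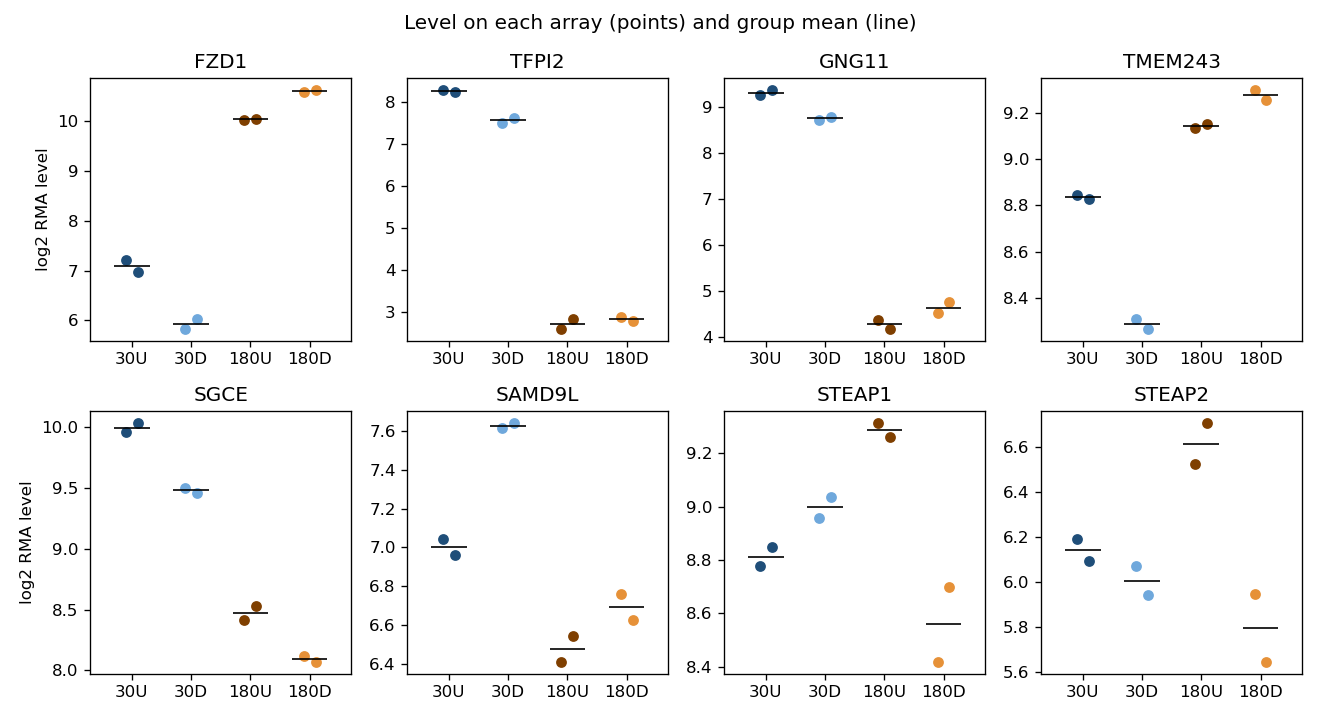
Log2 level on each of the 8 arrays (points) with the group mean (line) for 8 members, each panel with its own vertical scale that does not start at 0. FZD1, TFPI2, GNG11, TMEM243 and SGCE are lower in 30D than in 30U, SAMD9L is higher, and STEAP1 and STEAP2 are lower in 180D than in 180U.

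The paraoxonases PON2 and PON3, lactone-cleaving enzymes, differed in KYSE30, where PON3 was higher in D and PON2 overlapped. PON3 read 7.98 and 7.94 in 30U and 8.37 and 8.39 in 30D, a difference of 0.42 with the D arrays above the U arrays. In KYSE180 it read 4.97 and 4.78 in 180U and 5.17 and 4.93 in 180D, where the arrays overlapped and the difference of 0.17 came to 0.05 without 180D-1 and to 0.08 without 180U-2. PON2 read 10.68 and 10.79 in 30U and 10.69 and 10.64 in 30D, which overlap. In KYSE180 it read 9.59 and 9.65 in 180U and 9.45 and 9.42 in 180D, a difference of -0.18, or -0.20 without 180D-1.

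Of the transporters, ABCB1, the drug efflux pump known as P-glycoprotein, was under the filter value on all arrays. It read 2.57 and 2.70 in 30U, 2.67 and 2.68 in 30D, 2.57 and 2.63 in 180U, and 2.74 and 2.68 in 180D. ABCB4, the phospholipid floppase beside it, read 3.26 and 3.48 in 30U, 3.28 and 3.60 in 30D, 3.51 and 3.45 in 180U, and 3.43 and 3.38 in 180D. At these levels no difference between groups of either gene can be read. SLC25A40, a carrier that brings glutathione into mitochondria, was 0.32 lower in 30D and 0.13 lower in 180D. SLC25A40 and DBF4, whose starts lie 133 bases apart, thus had differences of the same sign in KYSE30 and of opposite sign in KYSE180, where the value of DBF4 rests in good part on 180U-2. SLC25A13, the aspartate-glutamate carrier citrin, was 0.16 lower in 30D and 0.15 higher in 180D, or 0.07 without 180U-2.

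Among members of energy metabolism, SDHAF3, an assembly factor of succinate dehydrogenase and the last gene of the run, read 8.36 and 8.34 in 30U and 7.90 and 7.87 in 30D. The D arrays lay below the U arrays by 0.47 in the mean. It read 8.69 and 8.50 in 180U and 8.29 and 8.28 in 180D, a difference of -0.30, or -0.31 without 180D-1. PDK4, a kinase that shuts down pyruvate dehydrogenase, was under the filter value throughout, at 3.35 and 3.34 in 30U and 4.20 and 3.60 in 30D, 2.63 and 2.54 in 180U, and 2.60 and 2.58 in 180D. CROT, a peroxisomal carnitine acyltransferase, was 0.30 lower in 30D. In KYSE180 its D and U arrays overlapped, and the difference of 0.09 came to 0.0069 without 180D-1.

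DYNC1I1, an intermediate chain of the dynein motor, was higher in D in both lines. It read 4.83 and 4.57 in 30U and 5.06 and 5.40 in 30D, a difference of 0.53 made of 0.24 and 0.83 in the pairs. It read 7.19 and 7.32 in 180U and 7.61 and 7.62 in 180D, a difference of 0.36, or 0.37 without 180D-1. With the median of its probe sets in place of the brightest, the KYSE180 difference was 0.10. PCLO, a scaffold of presynaptic zones, was 0.31 higher in 180D, while in KYSE30 its arrays overlapped and the difference of 0.07 came to 0.0049 without 30U-1. ADAM22, a member of the ADAM family without protease activity, was 0.17 higher in 30D and 0.15 higher in 180D on its brightest probe set. These came to 0.10 without 30D-2 and 0.06 without 180U-1. Its next probe sets gave -0.21 and -0.13 in KYSE30, each with the D arrays below the U arrays. The latter read 5.71 and 5.88 in 30U, against 5.37 and 5.42 for the one used, so no direction in KYSE30 is settled. CACNA2D1, an accessory subunit of calcium channels, was 0.31 lower in 180D and split between the pairs in KYSE30. Its second, dimmer probe set gave 0.13 in KYSE180, with the D arrays above the U arrays.

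TMEM243, a small membrane protein, read 8.85 and 8.83 in 30U and 8.31 and 8.27 in 30D, a difference of -0.55. The 30D arrays lay below the 30U arrays by 0.54 in the first pair and 0.56 in the second. In KYSE180 TMEM243 read 9.13 and 9.15 in 180U and 9.30 and 9.25 in 180D, a difference of 0.13, or 0.11 without 180D-1. TMEM60, the first gene of the run, read 9.33 and 9.32 in 30U and 9.15 and 9.14 in 30D, a difference of -0.18. It read 8.78 and 8.82 in 180U and 8.90 and 8.97 in 180D, a difference of 0.14, or 0.17 without 180D-1. Both membrane protein genes were thus lower in 30D and higher in 180D on all arrays.

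AKAP9, a scaffold at the centrosome and Golgi, read 8.83 and 8.74 in 30U and 8.54 and 8.65 in 30D, a difference of -0.19. In KYSE180 it read 8.65 and 8.71 in 180U, and 9.27 on 180D-1 and 8.89 on 180D-2. The difference of 0.40 came to 0.21 without 180D-1, and its second probe set gave -0.12. Of the others, GATAD1, a zinc finger protein of chromatin, was 0.38 lower in 30D and 0.16 higher in 180D, and BET1, a SNARE of transport from the endoplasmic reticulum to the Golgi, was 0.33 lower in 30D and split in KYSE180. PHTF2 was 0.18 lower and ELAPOR2 0.31 lower in 30D. SRI, the calcium-binding protein sorcin, CLDN12, a claudin, ANKIB1, a ubiquitin ligase, and RBM48, a factor of the minor spliceosome, were lower in both pairs of KYSE30 by 0.10 to 0.14. Of these, SRI came to -0.07 without 30D-1 and CLDN12 to -0.08 without 30D-2. CASD1, which acetylates sialic acid, was split in both lines, and RUNDC3B and GTPBP10 were under the filter value.

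Where a member had more than 1 probe set whose mean over the 8 arrays reached the filter value, the probe sets could be set against each other. Of 22 such members 16 had the same sign of difference on all of them in KYSE30, and PCLO, ADAM22, CDK14, RBM48, CDK6 and SLC25A13 did not. In KYSE180 11 had the same sign and 11 did not. The latter were PHTF2, CACNA2D1, ELAPOR2, ADAM22, CDK14, AKAP9, RBM48, CDK6, SAMD9L, SLC25A13 and PPP1R9A, the last at levels under the filter value. PHTF2 gave -0.18 on its brightest probe set and -0.43, -0.71 and -0.41 on the next 3 in KYSE30. The choice of probe set thus bore on the size of a difference in KYSE30 and often on its sign in KYSE180.

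The level of the members in the lines themselves was not what the list was chosen on, though it uses the same U arrays. Of the 37 members 5 had a mean under the filter value in 1 of these groups, PEG10, TFPI2, GNG11 and PPP1R9A in 180U and CDK14 in 30U. They entered through the line where they are high, so a difference was bound to appear, and they are left out of the counts. Of the other 32 members 27 differed between 180U and 30U past a limma adjusted p of 0.05, 11 higher and 16 lower in KYSE180. Of the 13467 tested genes above the filter value in both groups 63.6% passed, 33.5% higher and 30.2% lower. The median of the 32 members was -0.18, against 0.05 over these genes. A difference of at least 2-fold was seen in 7 of the 32 members, or 21.9%, and in 15.2% of these genes. With the 5 included, limma called 12 of 37 higher and 20 lower, against 34.0% and 30.5% of all tested genes, 64.5% in either direction. SLC25A13, AKAP9, DMTF1, DBF4 and PHTF2 did not pass.

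Among members above the filter value in both lines PON3 and SGCE had the widest differences to the lower side in KYSE180. PON3 was 8.47-fold lower, with means of 7.96 in 30U and 4.88 in 180U (-3.08 ± 0.09, SE, limma adjusted p = 1.46e-07). SGCE was 2.88-fold lower (-1.53 ± 0.06, limma adjusted p = 4.76e-07) and PON2 2.17-fold lower (-1.12 ± 0.06, limma adjusted p = 2.35e-06). For the members under the filter value in 180U only a bound measured from that value is given. PEG10 had means of 11.65 and 3.74, so it was at least 146-fold lower, GNG11 had means of 9.32 and 4.27, at least 29.2-fold, and TFPI2 had means of 8.25 and 2.72, at least 13.9-fold. PPP1R9A had means of 5.32 and 4.17, at least 1.82-fold. BET1, CASD1 and SGCE lie between GNG11 and PEG10, PON3 and PON2 follow PPP1R9A, and all 5 were lower in 180U. Of these, PON2, BET1 and CASD1 were named after their values were seen, and CASD1 did not pass with the median of its probe sets. The run did not stay lower to its end. After PON2, DYNC1I1 (2.55) and SDHAF3 (0.24) were higher in 180U and SLC25A13 did not pass.

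Higher in KYSE180 by the widest margin among members above the filter value in both lines was FZD1, 7.72-fold, at 10.04 against 7.10 (2.95 ± 0.10, limma adjusted p = 2.11e-07). DYNC1I1 was 5.87-fold higher (2.55 ± 0.13, limma adjusted p = 1.52e-06) and CACNA2D1 4.21-fold higher (2.07 ± 0.07, limma adjusted p = 2.75e-07). GNAI1 was 2.10-fold higher (1.07 ± 0.06, limma adjusted p = 3.17e-06) and STEAP1 1.39-fold higher (0.47 ± 0.09, limma adjusted p = 0.00281). CDK14, next to FZD1, had means of 3.97 in 30U, under the filter value, and 8.39 in 180U, at least 15.3-fold measured from that value. Its next brightest probe set read 5.88 and 5.70 in 30U and 6.01 and 6.09 in 180U. CDK6 passed with -0.23 ± 0.06 (limma adjusted p = 0.00968), but with the median of its probe sets it was 0.19 and did not pass (limma adjusted p = 0.076).

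**Figure D3:**
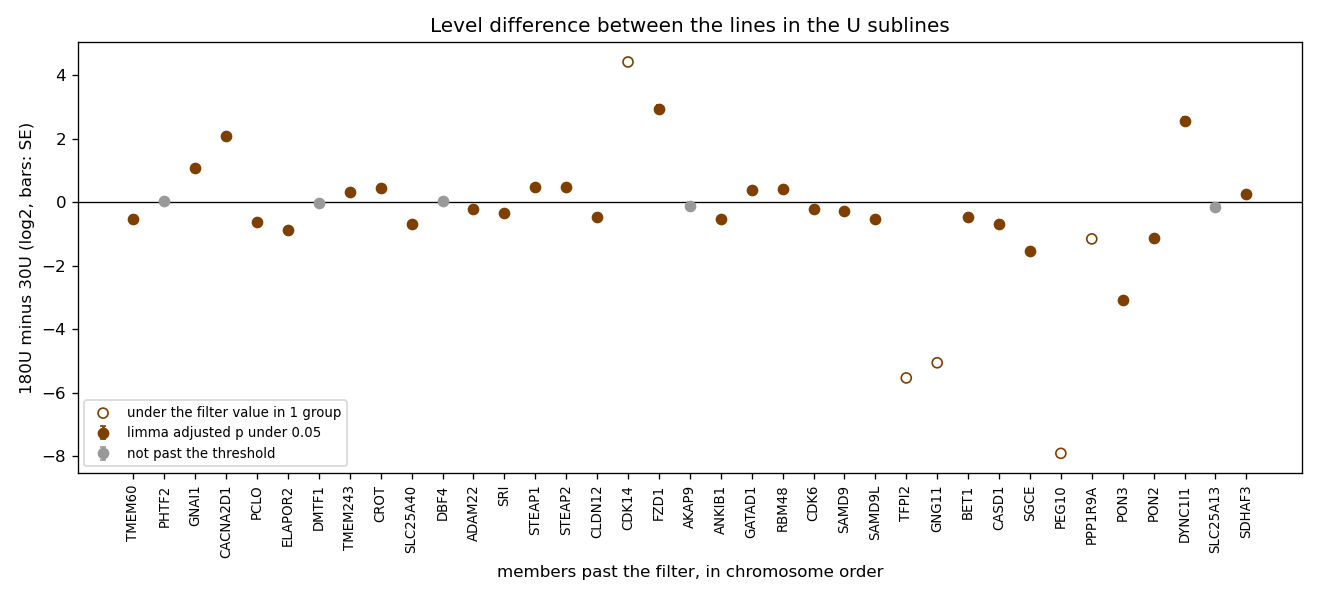
Difference in level between 180U and 30U (vertical axis, log2, bars the SE from limma) for the 37 members past the filter in chromosome order, with open symbols and no bar for the 5 members under the filter value in 1 group, whose distance from 0 is not a readable size. Of the filled symbols PON3 lies furthest below 0 and FZD1, DYNC1I1 and CACNA2D1 furthest above.

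The ends of the run were not sharp in KYSE30. Just inside, TMEM60 and PHTF2 differed by -0.18 each and SDHAF3 by -0.47. Just outside, the 5 genes before TMEM60 differed by -0.01 (DTX2P1-UPK3BP1-PMS2P11), 0.04 (GSAP), -0.10 (PTPN12), -0.30 (APTR) and -0.14 (RSBN1L). The 5 genes after SDHAF3 differed by -0.28 (ASNS), -0.06 (LMTK2), 0.46 (TECPR1), -0.16 (BRI3) and 0.02 (BAIAP2L1). Of these, 3 of the 5 genes before the run and 3 of the 5 after it were lower in both KYSE30 pairs. The share was 47.7% over the tested genes of chromosome 7 outside the interval and 35.5% over all tested genes. Counts out of 5 cannot be told from these shares. In KYSE180 the same genes ran from -0.17 (GSAP) to 0.22 (BRI3).

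Most genes of the interval that are not on the list were lower in 30D as well. Of 14 such genes past the filter 10 were lower in both KYSE30 pairs and 2 were higher, with a median of -0.16. Of all tested genes 35.5% were lower in both KYSE30 pairs and 38.8% higher. Of the tested genes of chromosome 7 outside the interval 47.7% were lower in both. At the far end the homeobox gene DLX5 read 4.88 and 4.73 in 30U and 3.71 and 4.23 in 30D. Its measured difference was -0.83, with -1.16 and -0.50 in the pairs. Both 30D arrays lay under the filter value, so the size of this difference cannot be read. DLX6 and DLX6-AS1 differed by -0.60 and -0.69, which is wider than most members. In KYSE180 most of the 14 had no common direction, as 10 were split between the pairs. None was lower in both pairs (24.9% of all tested genes) and 4 were higher (35.1%). The median was 0.09.

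Along the whole chromosome the interval stood lowest in KYSE30, which is again a description of the contrast it was chosen on. The chromosome was divided into stretches of up to 50 tested genes on either side. The interval of 51 genes had a median of -0.18 and the other stretches had medians from -0.12 to 0.05. The stretch from SYPL1 to RBM28, further down the long arm, came next at -0.12, with 34 of 50 genes lower in both pairs and 3 higher. The stretches directly before and after the interval had medians of -0.09 and -0.07. In KYSE180 the interval had a median of 0.09, and both stretches after it were higher, at 0.12 and 0.14, with 29 and 35 of 50 genes higher in both pairs. The KYSE180 values of the interval thus were not the highest of the chromosome.

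**Figure D4:**
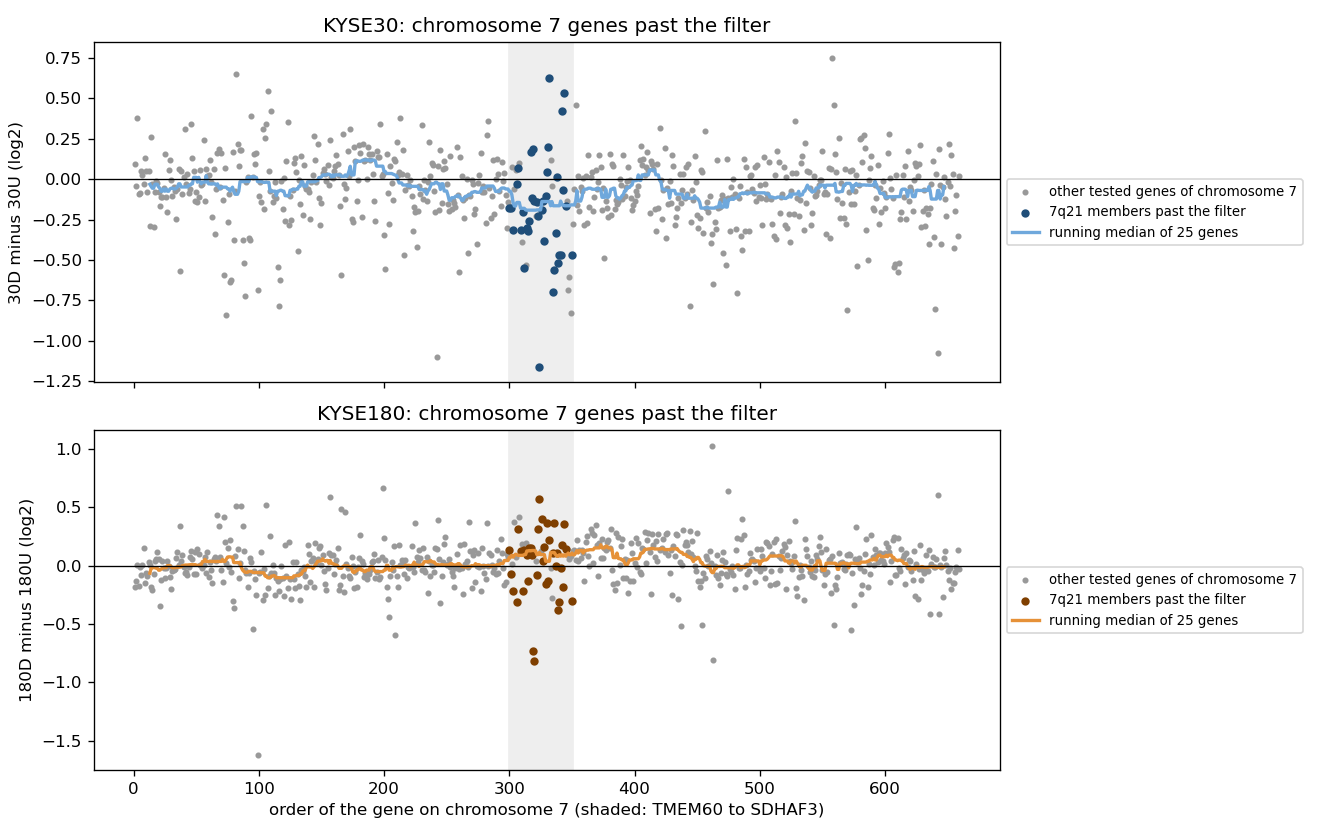
Difference between D and U (vertical axis, log2) for the tested genes of chromosome 7 in gene order, with the 37 members in dark colour, the interval shaded and the running median of 25 genes as a line. In KYSE30 the running median is under 0 across the interval and much of the long arm, and in KYSE180 it is above 0 from the interval onwards for about the next 100 genes.

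Chromosome 7 as a whole was lower in 30D than any other chromosome. Its 659 tested genes had a median of -0.06, with -0.06 and -0.07 in the pairs, while the medians of the other 22 chromosomes ran from -0.01 (chromosome 16) to 0.03 (chromosome 20). Of the tested genes of chromosome 7, 49.3% were lower in both KYSE30 pairs, against 29.8% to 40.4% on the others. Without the interval, 608 genes of the chromosome still had a median of -0.05 and 47.7% were lower in both pairs. In KYSE180 chromosome 7 had a median of 0.02, within the range of the others, -0.01 to 0.05.

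**Figure D5:**
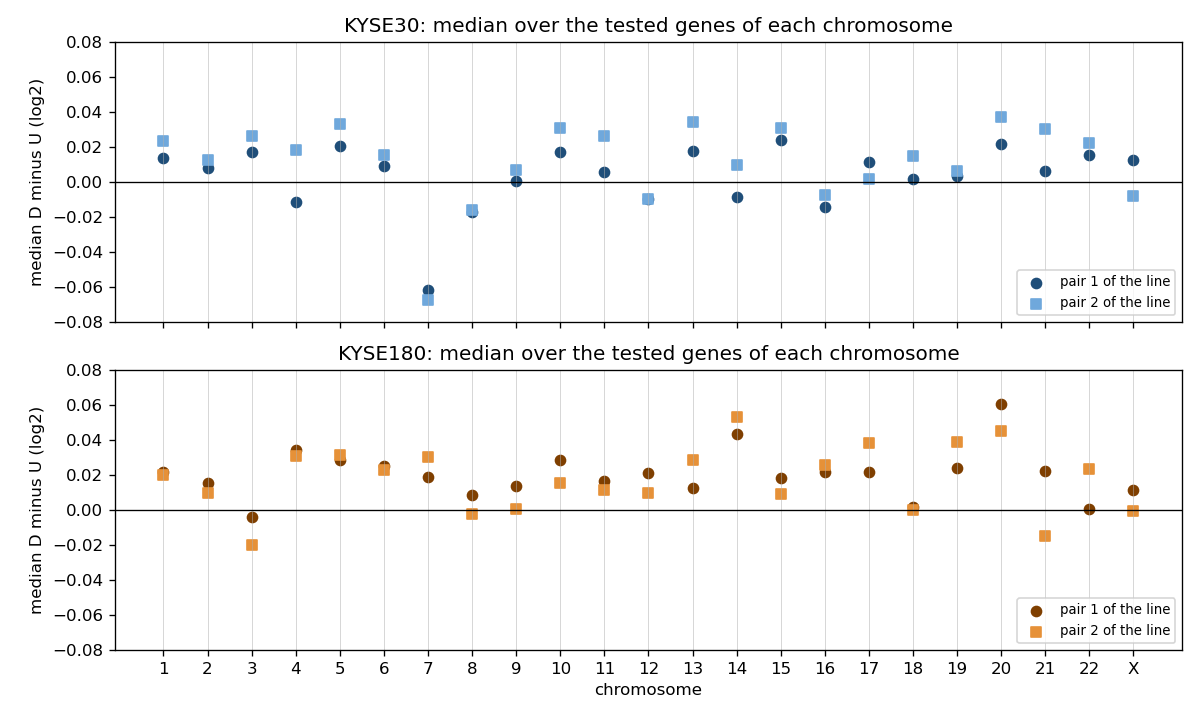
Median difference between D and U (vertical axis, log2) over the tested genes of each chromosome in each parental pair, KYSE30 above and KYSE180 below. In KYSE30 both pairs put chromosome 7 lowest, at -0.06 and -0.07, and in KYSE180 it lies among the others.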

How the data were processed

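Expression was measured on 8 Affymetrix arrays with 54675 probe sets. The deposited values are log2 levels that the authors made with RMA, which corrects background, brings the arrays to 1 distribution and summarises probes, per the submitters' processing notes. No RMA version is stated in the sources used here. RMA hides a change in total RNA per cell and understates differences of dim genes. Gene names came from the platform annotation, in which 41091 probe sets had 1 symbol, and symbols were updated through RefSeq (GRCh38.p14), which also gave the gene order. Per gene the probe set with the highest mean was kept if this mean reached a log2 level of 4.46 (the 40th percentile over the array), which left 14180 of 19775 genes. The filter value is not a detection call, and where 1 group of a comparison lay below it the difference of a member was also measured from it.

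Tests used limma 3.58.1 in R 4.3.3 (lmFit and eBayes, two-sided), fitted to the 4 group means with Benjamini-Hochberg adjustment over all tested genes and a threshold of 0.05, and checked on simulated data. With 2 arrays per group, p-values rest on the spread between populations that were selected apart. The deviations of arrays from 1 parental population correlated by -0.02 in KYSE30 and 0.02 in KYSE180. The labels name the shared populations, so the differences between D and U are described by pair. The limma p-values and shares given here come from the fit to the group means, which does not use the pairs. With the population as replicate block, limma called 1716 genes in KYSE30 against 2346 without it and 230 in KYSE180 against 532. Called both ways were 1616 genes in KYSE30 and 213 in KYSE180. The members, partner list and marker lists were chosen with earlier results of these data known. Values in every array are given for the 8 members with the widest difference in each line, the first and last member and the neighbouring or related pairs ABCB1 and ABCB4, STEAP1 and STEAP2, SAMD9 and SAMD9L, PON2 and PON3, and CDK6 and CDK14. PEG10 in KYSE180, DLX5, DLX6 and DLX6-AS1 were named after their values were seen. In the line comparison the 6 widest differences in each direction are named, as bounds where 1 group lay below the filter value. PON2, BET1 and CASD1 there, and the count without members below the filter value in 1 group, were chosen after seeing the data.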

Additional observations from a re-analysis of the deposited data

Results flagged for a closer look

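In 13 members both parental pairs of KYSE30 went one way and both of KYSE180 the other. The share of all tested genes that did so is not given here, so this count is a description only. The difference between the lines was not tested for any of the 13 members. It is given here as the D minus U value of KYSE180 minus that of KYSE30. It was 1.73 for FZD1, 0.93 for GNG11, 0.81 for TFPI2, 0.68 for TMEM243, 0.59 for AKAP9, 0.54 for GATAD1, 0.44 for ELAPOR2, 0.41 for DBF4, 0.39 for CROT, 0.32 for TMEM60 and 0.31 for SLC25A13, all lower in 30D and higher in 180D. It was -0.91 for STEAP1 and -0.33 for SAMD9, which were higher in 30D and lower in 180D. TFPI2 was under the filter value on all KYSE180 arrays, so its 0.81 holds no readable KYSE180 difference. GNG11 was under it in 180U, and the KYSE180 arrays of CROT overlapped. ELAPOR2, AKAP9 and SLC25A13 had probe sets that differed in sign in KYSE180. Without 180U-2 the KYSE180 difference of DBF4 came to 0.06 and that of SLC25A13 to 0.07. Without 180D-1 that of AKAP9 came to 0.21.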

How the results depend on the processing

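The median difference of the members in KYSE30, -0.18, stayed below 0 under all alternatives run, at -0.20 with arrays centred on their median, -0.15 with no filter, and from -0.20 to -0.17 when single arrays were left out. In KYSE180 the median of 0.10 came to 0.055 with centred arrays and to -0.001 with the median of each gene's probe sets, and ranged from 0.020 to 0.10 when single arrays were left out. Without 180D-1 it was 0.0197 and without 180U-1 it was 0.0566. The number of members with a negative difference lay between 26 and 30 in KYSE30 and between 15 and 19 in KYSE180. The replicate block left the members' differences as they were. Over all genes the 532 calls in KYSE180 came to 1069 with an intensity trend, 311 with the median of probe sets, 311 with no filter, 195 with only the KYSE180 arrays and 230 with the parental population as replicate block, and to between 209 and 502 without single arrays. The 2346 calls in KYSE30 came to between 834 and 2553 without single arrays. In the comparison of the lines, members higher in 180U numbered 10 to 12 and members lower 17 to 20, and CDK6 turned to 0.19 with the median of its probe sets. The cause of these changes was not tested. With 2 arrays per group the number of arrays limits precision, and members under the filter value have no readable difference.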

Other observations

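The probe sets that CYP51A1, a sterol demethylase of cholesterol synthesis, shares with LRRD1 cannot be given to either gene. The brighter one read 10.14 and 10.02 in 30U and 9.60 and 9.67 in 30D, a difference of -0.45, and the other differed by -0.32. In KYSE180 they differed by 0.05 and 0.08. GTPBP10, which assembles mitochondrial ribosomes and was dim on its own probe set, has a bright probe set shared with LOC101927446, which differed by 0.04 in KYSE30 and -0.12 in KYSE180. SEMA3C, a secreted semaphorin inside the interval that is not on the list, read 10.18 and 10.15 in 180U and 10.49 and 10.59 in 180D, a difference of 0.38, and -0.06 in KYSE30. TP53TG1, a noncoding RNA of the interval, differed by -0.53 in KYSE30 and 0.19 in KYSE180.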
